A study of Rattus norvegicus with 18 samples.

Results

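Pcna encodes the proliferating cell nuclear antigen, a ring of identical subunits that closes around DNA and slides along it behind the replication fork. The ring holds the replicative DNA polymerases on their template, and it also serves as a platform for the enzymes that finish the lagging strand, repair DNA and copy chromatin marks. Its messenger RNA is known to rise towards S phase under E2F transcription factors, so it is widely used as a marker of proliferating cells, and its RNA and protein are also present at lower levels in resting cells. Here the gene is followed as the single row ENSRNOG00000021264, 1 of 27654 genes in the deposited tables, across all 18 libraries.

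The libraries were made from beta cells of rat pancreatic islets, isolated from rats called old or young and kept overnight in RPMI1640 with 10% serum and 11.1 mM glucose. All of them, quiescent ones included, came from islets given 10 micromolar EdU, a thymidine analogue that cells build into new DNA. The design text gives 9 islet batches of 2 rats, each divided into replicating and quiescent beta cells, and the labels give 4 quiescent and 4 replicative libraries for old rats and 5 of each kind for young rats. The labels and files used here do not state the strain, sex, age in weeks, sort gate, length of the EdU exposure or number of cells in a library. EdU marks passage through S phase at any moment of the exposure, while the RNA is that present when the cells were collected.

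Library totals ran from 2723660 to 14222719 counts, and the old replicative libraries were the least alike, with a biological coefficient of variation of 1.29 against 0.701 in the young replicative group and 0.294 and 0.348 in the old and young quiescent groups. Because the files pair no gene ID with a name, no marker gene could be read to check the beta cell label or the presence of other cell types. In bulk RNA of this kind, fewer cells in S phase and less Pcna RNA per cell cannot be told apart.

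The promoter is shown as background on the control of the gene, and no file here measures it. The 250 bases before the RefSeq start of Pcna lie at chr3:139955821-139956070 of build GRCr8, on the minus strand, and are printed from 5′ to 3′ along the gene. Capitals mark matches to the motifs searched.
Pcna promoter: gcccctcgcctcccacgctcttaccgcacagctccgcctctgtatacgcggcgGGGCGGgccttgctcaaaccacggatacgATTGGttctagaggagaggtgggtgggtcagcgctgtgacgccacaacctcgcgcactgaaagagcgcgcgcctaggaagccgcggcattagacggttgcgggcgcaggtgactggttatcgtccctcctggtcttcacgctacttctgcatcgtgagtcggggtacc

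Of the motifs searched on both strands, a GC box (GGGCGG) starts 197 bases before the start and a CCAAT box (CCAAT, here on the opposite strand) 168 bases before it. GGGCGG is found in 30.5% of 33469 RefSeq windows of this length and CCAAT in 34.0%. An E2F motif written TTTNNCGC, a cyclic AMP response element (TGACGTCA) and the cell cycle homology region TTTGAA had no match, which says only that these letters are not in this window. They occur in 4.11%, 1.59% and 16.2% of the windows. The window holds 63.6% G and C bases, against a median of 51.2%.

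In old islets Pcna was higher in every replicating library than in every quiescent one. The old quiescent libraries stood at 25.9, 16.9, 25.6 and 21.8 CPM (counts scaled to a common library size, with TMM factors) in replicates 1 to 4, from 96 to 230 counts each. The old replicative libraries stood at 83.2, 145.8, 53.3 and 62.1 CPM, from 170 to 1396 counts each. The groups did not overlap, and the lowest replicating library, replicate 3, was above the highest quiescent one, replicate 1. Of all genes tested, 16.5% had old groups that did not overlap.

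The mean level was 22.6 ± 4.19 CPM in the quiescent and 86.1 ± 41.7 CPM in the replicative group (SD, n = 4 each). The log2 fold change was 1.93 (SE 0.460), a 3.82-fold rise, and it passed the quasi-likelihood F test of edgeR (Benjamini-Hochberg adjusted p over all genes = 0.00792). In that comparison 13.8% of genes were called. The median log2 fold change of all genes was 0.01, and 85.3% of genes had a lower value than Pcna. Fitted on the 8 old libraries alone, where 4.41% of genes were called, Pcna rose by 2.01 (SE 0.408, edgeR adjusted p = 0.0231). When that fit also had the replicate number as a block, with 3.86% of genes called, the value was 1.92 and no longer passed (edgeR adjusted p = 0.0676).

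The rise of Pcna was smaller than that of most genes called higher in old replicating cells. The test selects this set, so genes with few counts or a wide spread enter it only with large changes. Of the 1068 genes called higher, 854 had a larger log2 fold change than Pcna and 213 a smaller one. By p-value Pcna ranked at place 657 of 14920 genes. Old replicative replicate 2, at 145.8 CPM, was the highest library of the series, and without it the old log2 fold change was 1.52 (edgeR adjusted p = 0.0348). The 95% counting interval of that library was 138 to 154 CPM. Its gap to the next library was 0.677 of the range of the group, under the 0.829 at which a sample of 4 is taken to stand apart (Dixon's test).

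In young islets Pcna was higher in most replicating libraries, but the groups overlapped. The young quiescent libraries stood at 21.2, 32.0, 23.7, 18.8 and 15.4 CPM in replicates 1 to 5, from 88 to 221 counts each. The young replicative libraries stood at 60.0, 47.2, 58.5, 27.6 and 10.5 CPM, from 55 to 516 counts each. Replicates 1, 2 and 3 of the replicating group were above every young quiescent library. Replicate 4 was within the quiescent range, and replicate 5, with 55 counts and a 95% counting interval of 7.89 to 13.6 CPM, was the lowest library of the series. In 7.09% of genes the young groups did not overlap.

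**Figure D1:**
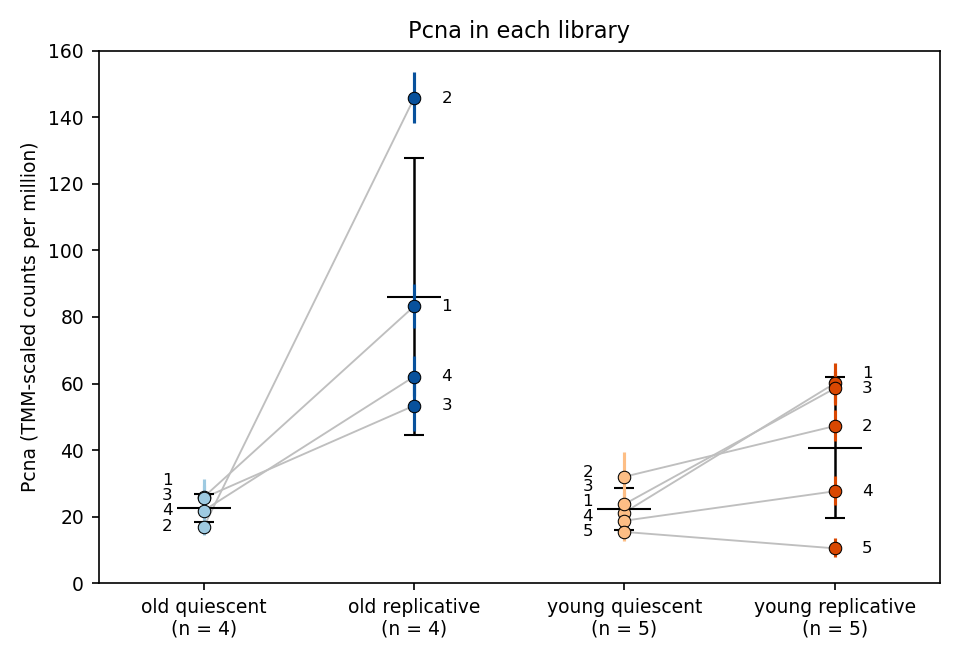
Pcna in TMM-scaled CPM (vertical axis) in each library of the 4 groups (horizontal axis), with the replicate number beside each point, coloured bars for the 95% Poisson counting interval, black bars for the group mean and SD, and grey lines between libraries of the same age and number. All old replicative libraries, at 53.3 CPM or more, lie above the quiescent libraries, while young replicative libraries run from 10.5 to 60.0 CPM.

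The young means were 22.2 ± 6.26 CPM for quiescent and 40.8 ± 21.3 CPM for replicating libraries (SD, n = 5 each). The log2 fold change of 0.88 (SE 0.403) did not pass the test (edgeR adjusted p = 0.512), in a comparison where 2.47% of genes were called. Nor did it in the fit of the 10 young libraries alone (log2 fold change 0.91, edgeR adjusted p = 0.257), which called 6.06% of genes. It did pass in limma-voom with sample quality weights (log2 fold change 1.22, SE 0.221, adjusted p = 0.000278), which called 19.8% of genes. That method gave young replicative replicates 4 and 5 weights of 0.297 and 0.175, against 1.71 to 2.91 for replicates 1 to 3. The old replicative libraries also had low weights, from 0.103 to 0.345. Without young replicative replicate 5 the edgeR log2 fold change in young cells was 1.13 and the adjusted p 0.109.

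Young replicative replicate 5 did not stand out by its total of 5439091 counts, which lay close to the 5573995 of replicate 1. When all libraries were thinned to 2723660 counts, replicates 4 and 5 held 14510 and 14011 detected genes and replicates 1, 2 and 3 held 21869, 18833 and 19825. The libraries with the lowest Pcna in the group were thus also those with the fewest genes detected. Among old replicative libraries, replicate 2, the highest in Pcna, held 13875 genes and replicate 1 held more, 16843, with 11730 and 12427 in replicates 3 and 4. The part of gene detection in the Pcna values was not tested.

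Among quiescent cells the mean levels of Pcna at both ages were close, and no difference was detected. The means of 22.6 and 22.2 CPM differed by a log2 value of 0.03 (SE 0.425, old minus young, edgeR adjusted p = 1.00), and the old range of 16.9 to 25.9 CPM lay inside the young range of 15.4 to 32.0 CPM. In this comparison 0.0268% of genes were called, and the groups did not overlap for 6.07%. With RLE and upper-quartile factors it was -0.0574 and -0.0579, scalings that moved the median of all genes from -0.04 to -0.11. Relative to that median, Pcna stood at 0.07 with TMM, 0.06 with RLE and 0.05 with upper-quartile factors. In the fit of the 9 quiescent libraries alone it was 0.0028 with an SE of 0.224 (edgeR adjusted p = 0.996), in a fit that called 2.01% of genes.

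Among replicating cells the old mean of 86.1 CPM was above the young mean of 40.8 CPM, with a log2 difference of 1.08 (SE 0.420) that did not pass the test (edgeR adjusted p = 0.120). The ranges met only where old replicate 3, at 53.3 CPM, lay under young replicates 1 and 3, at 60.0 and 58.5 CPM. An old library was the higher in 18 of the 20 pairs of an old and a young replicating library. In the 4-group model 7.16% of genes were called, and 6.37% had groups that did not overlap. The fit of the 9 replicating libraries alone called 0.466% of genes and gave Pcna a difference of 1.07 (SE 0.502, edgeR adjusted p = 0.462). With the batch as a random block in limma-voom, a model that called 11.6% of genes, the difference was 1.19 (SE 0.379) and passed (adjusted p = 0.0442). It was 0.67 without old replicative replicate 2 (edgeR adjusted p = 0.369).

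From lowest to highest mean CPM, the order was young quiescent, old quiescent, young replicative, then old replicative. The quiescent means were close, and their order was reversed on the deposited log2 values (7.09 in old, 7.11 in young). Only the old replicative group was separated from both quiescent groups without overlap. The old replicative and old quiescent groups did not overlap for 16.5% of genes, and the share separated from both quiescent groups was not computed. Young replicative libraries overlapped each of the other groups. Whether the replication difference depended on age was tested as an interaction, which was 1.05 on the log2 scale (SE 0.600), a larger value in old cells, and did not pass (edgeR adjusted p = 0.597). The interaction test called 0.0268% of genes.

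**Figure D2:**
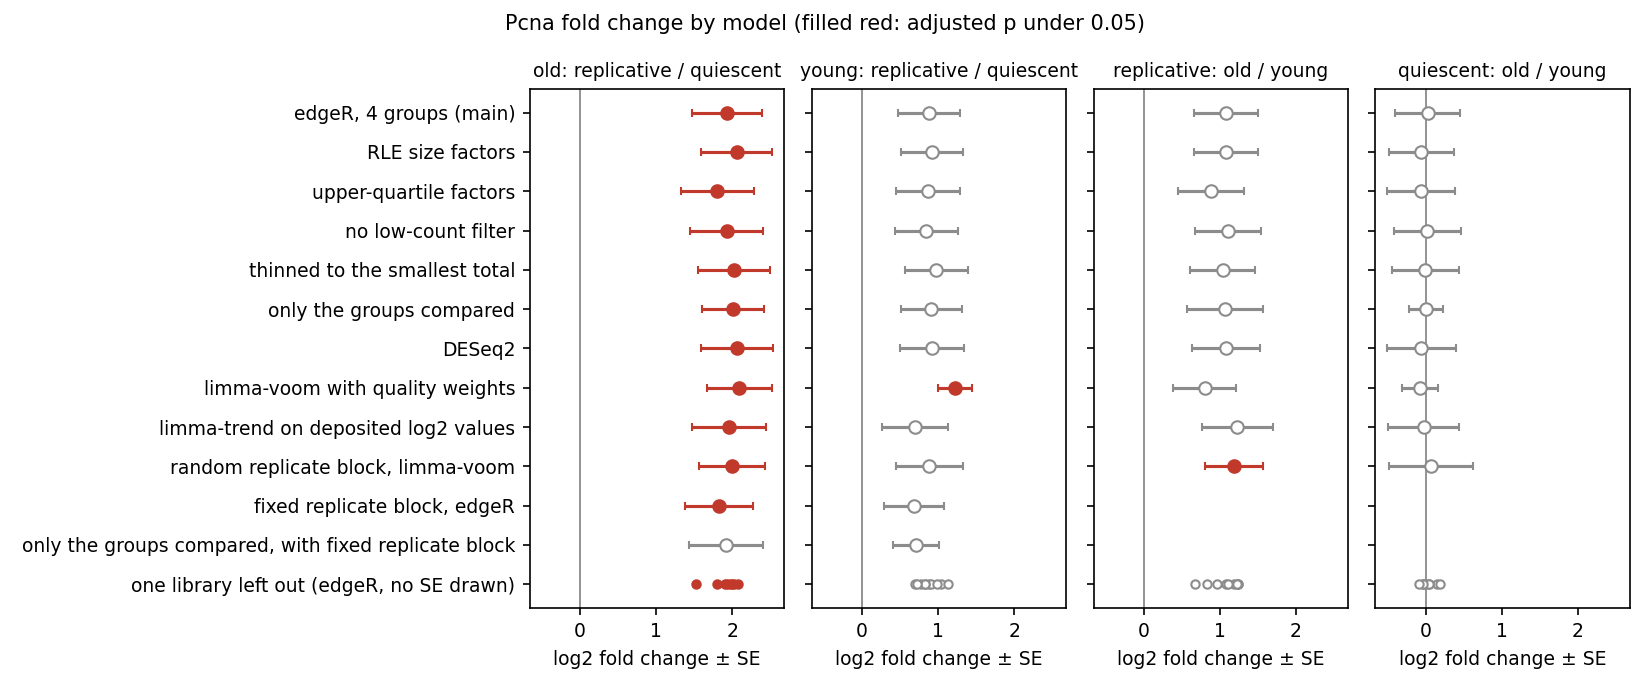
Log2 fold change of Pcna with its standard error (horizontal axis) in each model and processing choice (vertical axis) for 4 comparisons, with filled red points where the adjusted p was under 0.05; the bottom line shows edgeR values with a single library left out, without error bars. The old replicative against quiescent values lie between 1.52 and 2.09 and are red in all but the 2-group fit with a block, while the other comparisons are mostly open circles.

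The spread of Pcna within groups was compared with that of the 2309 genes of similar abundance, those with an average log2 CPM from 5 to 6. In old replicative libraries the coefficient of variation of Pcna, 48.4%, was below the median of those genes, 61.1%. In young replicative libraries it was 52.3%, above the median of 32.0% and above the value of 85.8% of those genes. In quiescent libraries it was 18.6% in old and 28.2% in young, beside medians of 15.5% and 19.9%. Each of these values leaned on a single library. Without young replicative replicate 5 the coefficient was 30.9%, beside a median of 22.8%, and without old replicative replicate 2 it was 23.2%, beside 61.5%. Without old quiescent replicate 2 it was 9.30%, beside 15.95%, and without young quiescent replicate 2 it was 18.0%, beside 20.5%, so that in both quiescent groups it went from above the median to under it. Counting error alone would give between 2.68% and 13.5% per library.

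Libraries of the same age and replicate number were then set against each other, taking the number as that of the islet batch. The labels do not state that the numbers mark batches. On the log2(CPM + 1) scale, the replicating library was higher by 1.65, 3.03, 1.03 and 1.47 in old batches 1 to 4. In young batches 1 to 4 it was higher by 1.46, 0.55, 1.27 and 0.53, and in young batch 5 the value was -0.52. Pcna was therefore higher in the replicating library in 8 of 9 batches, and the exception was the batch with the lowest level on both sides.

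Over all 9 batches the mean difference was 1.16 ± 0.970 (SD, n = 9; exact sign-flip test, two-sided, p = 0.00781, adjusted over 4 tests 0.0313). These 4 tests are of Pcna alone, not of all genes. The share of all genes that reach such a p, or are higher in 8 of 9 batches, was not computed. In old batches the mean difference of Pcna was 1.79 ± 0.866 (SD, n = 4; exact p = 0.125, the smallest that 4 pairs allow). In young batches it was 0.66 ± 0.777 (SD, n = 5; exact p = 0.125, where 0.0625 is the smallest possible). All tests with old batches, the one over 9 batches included, take the old libraries as paired by number. The old numbers did not meet the limit set for pairing, since deviations from group means correlated above 0.1 in 3 of 4 old pairs. Old pair 3 stood just under it, at 0.0996, and every old library correlated best with its own number. The old mean exceeded the young one by 1.14 (exact permutation of the age labels over 9 batches, two-sided, p = 0.0714, adjusted p = 0.125). On the deposited log2 values this last difference was 1.26 (exact permutation p = 0.0476), without old batch 3 it was 1.39 (exact permutation p = 0.0357), and without old batch 2 it was 0.72 (exact permutation p = 0.179). With the libraries of old islets permuted freely, without pairing, the old difference of 1.79 had an exact permutation p of 0.0286, the smallest that 4 against 4 allows, and the young difference one of 0.198.

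The batch differences of Pcna were then read beside genes called higher at the other age. The fold changes of those genes share no library with these batches. Their calls are not independent of them, since the 4-group model took its filter, scaling and spread from all 18 libraries. The genes called higher in old replicating cells, 1067 without Pcna, had median differences of 1.00, 1.08, 1.19, 0.89 and 0.76 in young batches 1 to 5. Of these genes 956, 908, 965, 766 and 710 were above 0. The medians of all genes in the same batches were 0.04, 0.02, 0.02, -0.13 and -0.18, and the share of all genes above 0 was not computed. In young batch 5 the list was thus still shifted upward while Pcna was lower, and 37.8% of all genes had a lower value than Pcna there, against 95.8% in young batch 1 and 90.4% in young batch 3. In young batches 2 and 4 that share was 76.9% and 77.4%.

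The 336 genes called higher in young replicating cells had medians of 3.40, 3.29, 1.92 and 3.26 in old batches 1 to 4. In old batch 3 both Pcna, at 1.03, and the list were at their lowest among old batches. In old batch 2 the value of Pcna, 3.03, came close to the median of the list, and in old batches 1 and 4 it was far under it. The median of all genes ran from -0.62 in old batch 3 to 0.04 in young batch 1. These lists were chosen after the values of Pcna had been seen, and their medians describe the batches without a test.

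**Figure D3:**
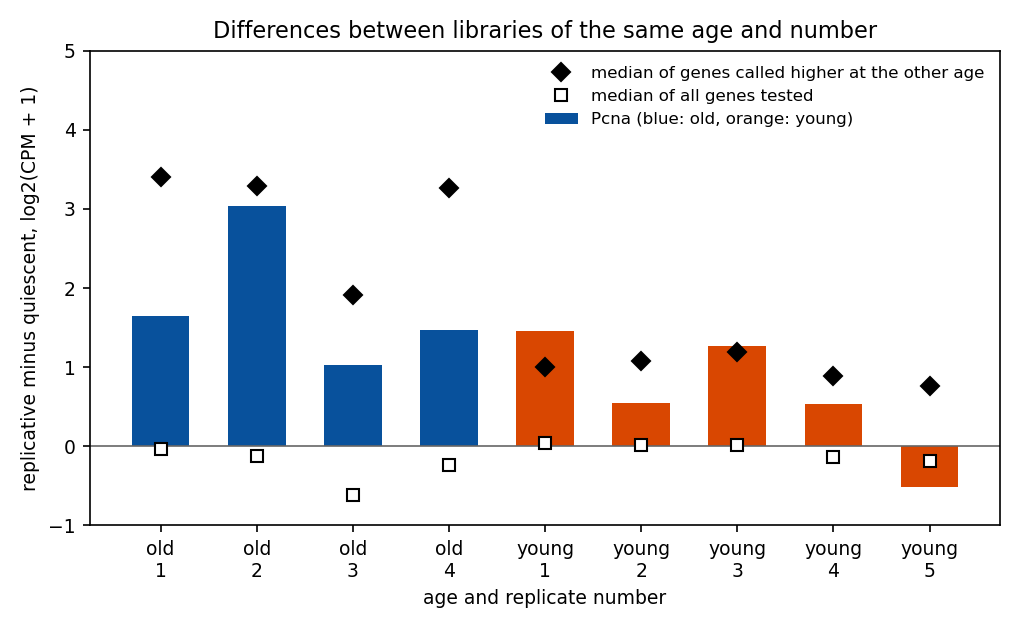
Difference between the replicating and the quiescent library of the same age and number in log2(CPM + 1) (vertical axis) for the 9 batches (horizontal axis); bars are Pcna, black diamonds the median of the genes called higher at the other age, and open squares the median of all genes tested. Pcna lies above 0 in all batches but young batch 5, at -0.52, where the diamond is at 0.76.

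The genes whose order across the 18 libraries was most like that of Pcna were sought among 11556 other genes with an average log2 CPM of at least 2. The likeness is a description, since all values share the same libraries and their depth and the groups themselves shape it. ENSRNOG00000022393 had a Spearman rho of 0.90 with Pcna and ENSRNOG00000025317 one of 0.89, where the median of all genes was -0.08 and the 99th percentile 0.74. After subtraction of the group means the Pearson correlations with Pcna were 0.79 and 0.69, values that the choice of the genes on these same libraries favours. The files do not say what these genes are.

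ENSRNOG00000022393 stood at 4.19 ± 0.881 CPM in the quiescent and 13.9 ± 6.44 CPM in the replicative old group (SD, n = 4 each). In young libraries it stood at 2.65 ± 0.778 and 6.99 ± 3.87 CPM (SD, n = 5 each). ENSRNOG00000025317 stood at 24.1 ± 1.91 and 54.1 ± 23.7 CPM in old quiescent and old replicative libraries (SD, n = 4 each), and at 26.3 ± 3.98 and 33.6 ± 14.2 CPM in the young ones (SD, n = 5 each). Neither passed the edgeR test between replicating and quiescent cells at either age (adjusted p = 0.0721 to 0.999). In young replicative replicate 5 they stood at 1.14 and 9.71 CPM.

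ENSRNOG00000020970 and ENSRNOG00000021130 were ordered most nearly opposite to Pcna, with a Spearman rho of -0.93 each. After subtraction of the group means the Pearson correlations were -0.78 and -0.77, again favoured by the choice. ENSRNOG00000020970 stood at 207 ± 10.9 CPM in the quiescent and 92.6 ± 24.7 CPM in the replicative old group (SD, n = 4 each), with a log2 fold change of -1.16 (edgeR adjusted p = 0.00126, and 0.0395 in the fit of the old libraries alone). In young replicative libraries it ranged from 145 to 221 CPM. ENSRNOG00000021130 stood at 735 ± 54.3 and 272 ± 167 CPM in the old groups (SD, n = 4 each; log2 fold change -1.43, edgeR adjusted p = 0.00702), a call lost in the fit of the old libraries alone (edgeR adjusted p = 0.0964). In young replicative libraries it ranged from 374 to 808 CPM. In young cells neither passed the test (edgeR adjusted p = 0.857 and 0.605).

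**Figure D4:**
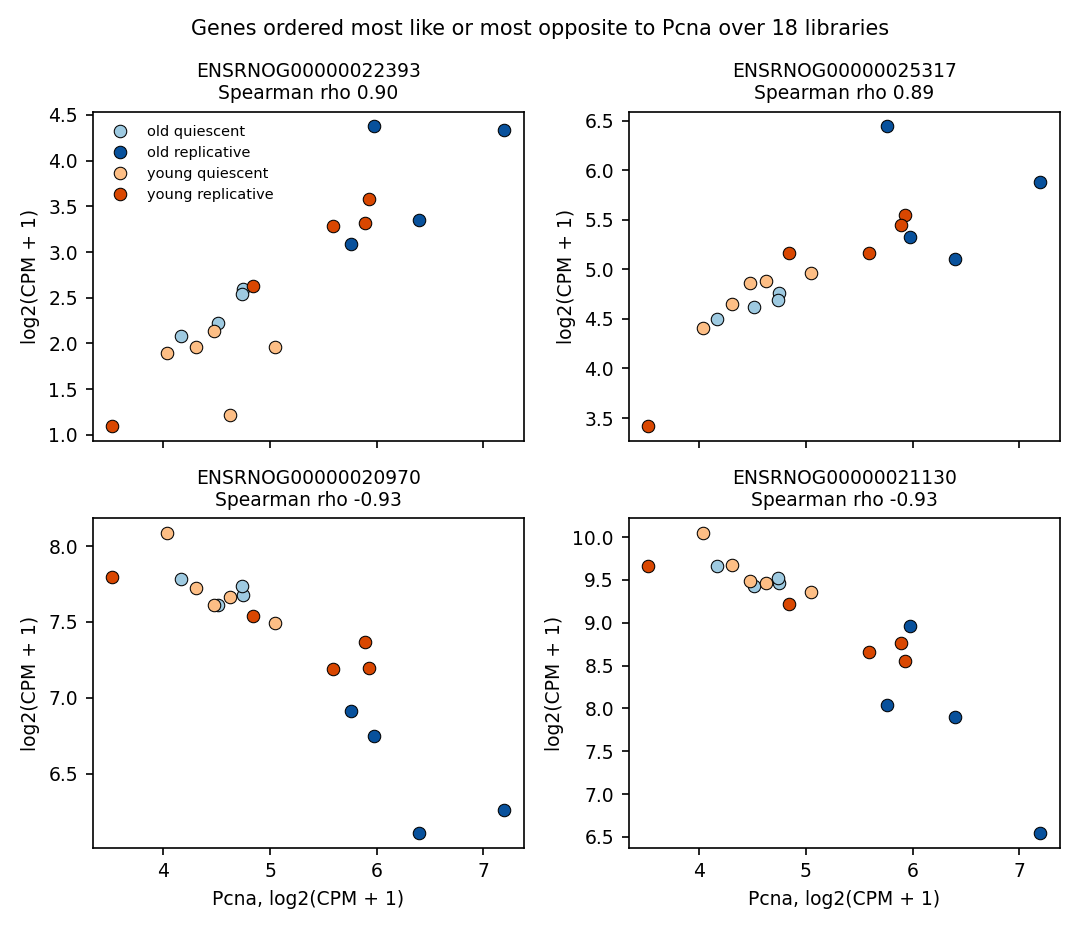
Level of 4 genes in log2(CPM + 1) (vertical axes) against that of Pcna on the same scale (horizontal axis), with a point for each of the 18 libraries coloured by group. The upper genes rise with Pcna and the lower ones fall, and the young replicative library farthest to the left is replicate 5, which lies among or beyond the quiescent libraries.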

How the data were processed

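RNA sequencing of 18 libraries was analysed. Per the submitters' processing notes, STAR, DESeq2 and build rn6 were used, with no role or version named. The deposited counts are whole reads per Ensembl gene, not normalized by the authors; the sources used here state neither how reads were assigned to genes nor with which annotation or strand setting. The deposited log2 values equal log2 of the count over a median-of-ratios size factor, plus 1 (largest difference on recomputing 5.3e-14).

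The tables hold no gene names, and 0 of 47357 RefSeq genes at hand carry an Ensembl ID. ENSRNOG00000021264 was therefore taken as Pcna as given with the choice of the gene, unchecked by any table, and the planned gene lists and cell type markers were not run. RefSeq lists 3 Pcna pseudogenes; how reads shared with them were counted is not known. Promoter sequence came from RefSeq (GRCr8).

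Counts were fitted in R 4.3.3 with edgeR 4.0.16 (filterByExpr, minimum count 10 and total 15, leaving 14920 genes; TMM; 4 group means over 18 libraries; robust quasi-likelihood F test; Benjamini-Hochberg; threshold 0.05). Standard errors are the log2 fold change over the square root of F. The fit was tested on simulated data drawn with the same spread in every group. That test therefore did not cover the unequal spread of the groups seen here. Alternatives used limma 3.58.1, DESeq2 1.42.0, statmod 1.5.0, other scaling, filters, thinning, blocks and single libraries left out. Exact tests used differences of log2(CPM + 1). Counting intervals are 95% exact Poisson and cover counting error only.

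Libraries are labelled as separate replicates from batches of pooled rats, and this sets the spread behind the p-values. The 5 young pairs of libraries with the same number deviated together from their group means (correlation over genes 0.145 to 0.498), so the numbers were taken to pair young libraries. Named by rule were Pcna and the 2 highest and 2 lowest genes by Spearman rho with it. The gene and lists were chosen with earlier results of these data known.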

Additional observations from a re-analysis of the deposited data

How the results depend on the processing

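The old replicative against quiescent rise of Pcna kept its direction and its call in 18 of 19 alternatives. It lost the call in the fit of the 8 old libraries with the replicate number as a block, added after seeing the data (1.92, edgeR adjusted p = 0.0676); with all 18 libraries and the block it was 1.83 (adjusted p = 0.0150). The old numbers did not meet the limit for pairing, with correlations from 0.0996 to 0.209, although 17 of 18 libraries of both ages correlated best with their own number. In young cells the value kept its side of the threshold in 21 of 22 alternatives, with 0.69 under the block (edgeR adjusted p = 0.756), and the exception was limma-voom with quality weights (1.22). The old against young value in replicating cells was called in 1 of 18 alternatives, the random block (1.19). The interaction was not called in any of 28 (0.65 to 1.26).

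The old against young value in quiescent cells, never called, was -0.0574 with RLE factors, -0.0579 with upper-quartile factors, -0.0568 in DESeq2, -0.0706 in limma-voom with quality weights, -0.0283 in limma-trend, -0.0037 when thinned, and from -0.0854 to 0.188 with single libraries left out. Against the median of all genes, which RLE factors moved from 0.01 to 0.14 in old cells, Pcna stood at 1.92 under both scalings. Without pairing, the old difference of 1.79 passed (exact permutation p = 0.0286). The difference between old and young batches was 1.26 on deposited log2 values and 1.26 without TMM (exact permutation p = 0.0476 each), and 0.72 to 1.39 with single batches left out (exact permutation p = 0.0357 to 0.179). The cause of these changes was not tested.

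Counts of called genes moved more. From 2053, 368, 4, 1069 and 4 (old, young, quiescent, replicative, interaction), they ran over the other models from 473 to 3684, 346 to 2952, 3 to 1589, 62 to 2504 and 0 to 383, and the young count was 315 without both libraries of young batch 5 (added after seeing the data). With single libraries left out they ran from 1134 to 2916, 293 to 393, 0 to 13, 644 to 2211 and 0 to 231. The low ends were reached without old quiescent replicate 4 (old), young quiescent replicate 3 (young), young quiescent replicate 2 or 3 (quiescent) and young replicative replicate 3 (replicative), and the interaction count was 0 in 9 of 18 such fits. The high ends were reached without old replicative replicate 4 (old), young replicative replicate 5 (young), old quiescent replicate 1 (quiescent) and old replicative replicate 1 (replicative and interaction). Counting error of Pcna was largest in young replicative replicate 5 (13.5%, from 55 counts).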
